A study of Mus musculus with 13 samples.

Results

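The genes described here are 8 mouse genes known for high expression in granule neurons of the dentate gyrus, namely Prox1, Dsp, C1ql2, C1ql3, Calb1, Tdo2, Lct and Trpc6. They were chosen by symbol, and all 8 were found in a table of 23238 gene symbols from hippocampus tissue and in one of 24542 symbols from cultured glia. The study asked what delivery of Nurr1 (Nr4a2) and Foxa2, written N+F here, does in a mouse model of Alzheimer disease and in glia exposed to amyloid beta. The tissue groups were 4 hippocampus libraries of 3xTg mice given N+F in AAV9, an adeno-associated virus, and 3 of 3xTg mice given control AAV9. All 7 therefore carry the 3xTg alleles (transgenes for mutant human APP and tau, both driven by Thy1, and a mutant presenilin), and the labels list amyloid beta as a treatment of all 7. No age and no wild type animal is given. The culture groups were 6 libraries, 1 for each of hippocampal and cortical glia under 3 conditions: N+F lentivirus with amyloid beta, control lentivirus with amyloid beta (the amyloid beta control), and control lentivirus without amyloid beta (called untreated). The glia came from ICR pups at postnatal day 1. No label ties each tissue library to its own animal, so the p-values rest on a spread between libraries that may be technical.

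Granule neurons are the principal cells of the dentate gyrus, and their axons, the mossy fibres, contact pyramidal neurons of CA3. Prox1, a homeobox transcription factor, is needed in mouse for a neuron to become and remain a granule neuron rather than a CA3 pyramidal neuron. C1ql2 and C1ql3 are secreted C1q-like proteins that granule neurons release at mossy fibre synapses, where they bind kainate receptors. Calb1 is the calcium buffer calbindin, and in rodents its loss from granule neurons has been linked to amyloid load and seizures. Dsp (desmoplakin, of cell junctions), Tdo2 (tryptophan dioxygenase), Lct (lactase) and Trpc6 (a cation channel opened by diacylglycerol) are genes of other organs that mark granule neurons within the mouse hippocampus. None of the 8 is exclusive to these cells: Prox1 is also known in some interneurons and lymphatic endothelium, Calb1 in CA1 and striatum, C1ql3 in cortex and Dsp in epithelia and meninges.

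The upstream promoter sequences of Lct, Dsp and C1ql2 are shown because, of the 7 genes that passed the count filter in tissue, these 3 had the differences farthest from 0, and that of Prox1 because it is the transcription factor of the set. Each is the 250 bases before the RefSeq start of the gene in GRCm38.p6, read 5′ to 3′ on the strand of the gene. Capitals mark any match to the letters AAAGGTCA (the NBRE, a Nurr1 motif), TGTTTAC (a forkhead motif) or the E-boxes CAGATG and CAGCTG, searched on both strands. No match overlaps another.
Lct, minus strand, chr1:128328319-128328568: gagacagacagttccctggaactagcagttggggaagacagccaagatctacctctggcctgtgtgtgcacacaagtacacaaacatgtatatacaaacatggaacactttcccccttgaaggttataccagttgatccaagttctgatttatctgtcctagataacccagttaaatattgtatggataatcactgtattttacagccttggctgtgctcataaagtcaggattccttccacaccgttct
Dsp, plus strand, chr13:38151044-38151293: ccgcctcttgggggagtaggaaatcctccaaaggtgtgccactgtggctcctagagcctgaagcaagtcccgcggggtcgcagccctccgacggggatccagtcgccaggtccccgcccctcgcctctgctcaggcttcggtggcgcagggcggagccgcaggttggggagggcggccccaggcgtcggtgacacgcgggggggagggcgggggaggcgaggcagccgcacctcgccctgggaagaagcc
C1ql2, plus strand, chr1:120340332-120340581: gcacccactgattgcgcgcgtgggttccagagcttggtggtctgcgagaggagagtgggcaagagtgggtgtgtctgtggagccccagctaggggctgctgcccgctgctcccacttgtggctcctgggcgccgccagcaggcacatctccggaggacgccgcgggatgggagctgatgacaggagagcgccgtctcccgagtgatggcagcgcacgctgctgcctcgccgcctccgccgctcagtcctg
Prox1, minus strand, chr1:190170828-190171077: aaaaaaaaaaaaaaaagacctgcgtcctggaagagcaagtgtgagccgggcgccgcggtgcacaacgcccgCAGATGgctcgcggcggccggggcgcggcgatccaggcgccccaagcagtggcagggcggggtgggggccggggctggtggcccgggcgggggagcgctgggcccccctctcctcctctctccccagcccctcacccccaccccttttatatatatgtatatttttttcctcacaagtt
RefSeq windows matched 7 of the 8 genes, with 2 starts for Prox1. Of the 2 Prox1 windows the one with a match is shown, and the other (chr1:190169516-190169765, 56% G and C) held none. The 1 match among the 8 windows was the CAGATG of Prox1, and these letters are found in 14.4% of 32851 windows of this length. AAAGGTCA is found in 1.34%, TGTTTAC in 3.17% and CAGCTG in 13.0% of them. Base composition differed between the shown windows: G and C made up 42.8% for Lct, against 72.4% for Dsp, 68.8% for C1ql2 and 64.8% for Prox1.

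Tissue libraries held 10194437 to 25139406 counts and culture libraries 52189025 to 78273121 counts. The library named control 2 stood apart in tissue. The 8 striatum markers summed to 2518, 2156, 2064 and 1494 CPM in N+F libraries 1 to 4 (CPM divides each count by its library sum), against 1070, 297 and 2135 CPM in controls 1 to 3. Both untreated culture libraries went against their glia label, since 6 general neuron markers summed to 342 to 361 CPM in the 4 amyloid beta libraries, against 5904 CPM in hippocampal and 6837 CPM in cortical untreated glia. They also held oligodendrocyte markers, 5 of which summed to 15.4 to 290 CPM in the 4 amyloid beta libraries, against 8250 CPM in hippocampal and 6941 CPM in cortical untreated glia. Whether the untreated libraries are glial cultures like the other 4 is therefore in doubt, and so is the condition that separates them.

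In 3xTg hippocampus, transcripts of Lct, Dsp, C1ql2, Trpc6 and Prox1 had lower means with N+F than with control AAV9, but none passed the test over all genes, and all 5 differences lay nearer to 0 without control 2. Calb1 and C1ql3, the most abundant of the set, differed little. Of the 8 genes, 7 passed the count filter, and 0 of these 7 were called in either direction, where 0.103% of all 15523 genes tested were called lower and 0.00644% higher (edgeR quasi-likelihood test, Benjamini-Hochberg adjusted p threshold 0.05). At an unadjusted p under 0.05, 4 of the 7 lay lower and 0 higher, beside 4.36% and 4.1% of all genes. Without control 2, 0 of the 7 lay lower at that p, beside 3.26% of all genes. Of the 7, 6 had a log2 fold change below 0, as had 50.8% of all genes. DESeq2 called 0 of the 7 as well, and 0.508% of all genes lower. The 7 log2 fold changes had a median of -0.68 (-0.37 without control 2), beside -0.0044 over all genes tested. Dsp and Lct met the filter through their control libraries, since 2 and 1 of the N+F libraries but all 3 controls reached the filter level of 0.827 CPM. All counts and medians over the 7 genes, those of separated groups included, are therefore descriptions only. In bulk tissue fewer granule neurons and less RNA per granule neuron cannot be told apart.

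**Figure D1:**
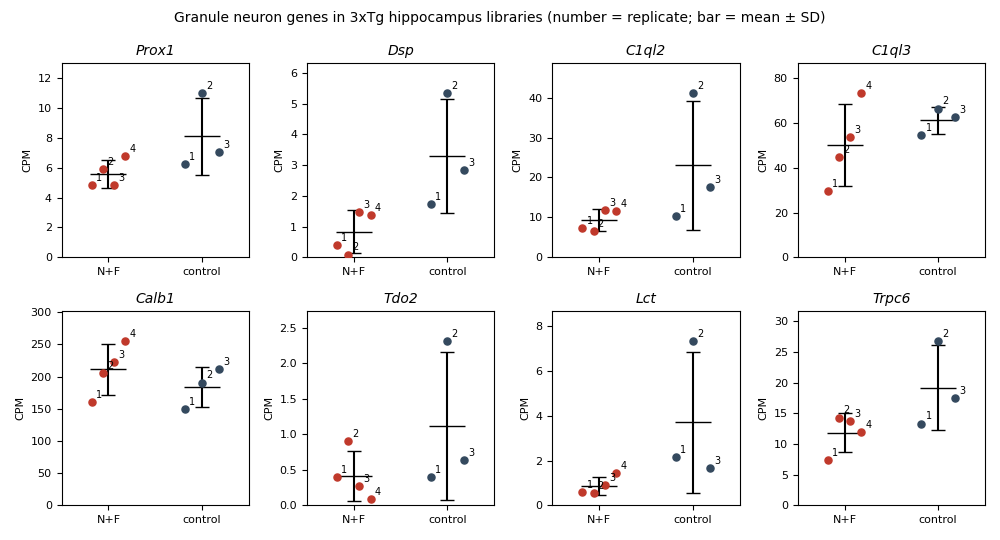
Level of each of the 8 genes in the 7 hippocampus libraries (vertical axis, TMM-scaled CPM, for Tdo2 CPM of the library total; horizontal axis, N+F and control groups; points are libraries numbered by replicate, bars mean ± SD). Control 2 is the highest library for 6 of the 8 genes, all but C1ql3 and Calb1, for which N+F library 4 is highest.

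Prox1 measured 4.82, 5.90, 4.84 and 6.80 CPM in N+F libraries 1 to 4, against 6.26, 11.03 and 7.03 CPM in controls 1 to 3 (tissue levels are TMM-scaled CPM from here on). The groups overlapped, because N+F library 4 lay above control 1, and control 2 stood well above all others. The log2 fold change was -0.52 ± 0.25 (SE; edgeR adjusted p = 0.629), from means of 5.59 ± 0.951 CPM with N+F and 8.11 ± 2.56 CPM in controls (SD, n = 4 and 3). Without control 2 it was -0.24. On CPM of the library total, without TMM, the Prox1 groups did not overlap, at 4.33 to 6.93 CPM with N+F and 6.96 to 10.9 CPM in controls.

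Dsp measured 0.402, 0.0895, 1.48 and 1.36 CPM with N+F, against 1.72, 5.35 and 2.85 CPM in controls. All N+F libraries lay below all controls, and N+F library 2 held a single read. Such a split was found in 4.19% of all genes tested, and Dsp and Lct were the 2 genes of this set among them; the opposite split was found in 3.92% of all genes and 0 of this set. On CPM of the library total the split held for 4 of the set, Prox1, Dsp, Lct and Trpc6, and for 6.88% of all genes. Dsp and Lct passed the filter through their controls, so nothing is read from these counts. The log2 fold change of Dsp was -1.94 ± 0.64 (edgeR adjusted p = 0.381), and -1.42 without control 2.

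C1ql2 measured 7.23, 6.62, 11.9 and 11.7 CPM with N+F, against 10.3, 41.2 and 17.5 CPM in controls. N+F libraries 3 and 4 lay above control 1, and the level in control 2 was 2.96 times the mean of the other controls. The log2 fold change was -1.28 ± 0.39 (edgeR adjusted p = 0.331; DESeq2 adjusted p = 0.0652), and -0.56 without control 2. Its paralogue C1ql3 measured 29.6, 44.7, 53.8 and 73.5 CPM with N+F, against 54.5, 66.5 and 62.5 CPM in controls. These values overlapped widely, with N+F libraries holding both the lowest and the highest level. The C1ql3 log2 fold change was -0.28 ± 0.23 (edgeR adjusted p = 0.827), and ranged from -0.52 without N+F library 4 to -0.09 without N+F library 1.

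Calb1 measured 160, 206, 223 and 255 CPM with N+F, against 150, 191 and 212 CPM in controls. It was the 1 gene of the 7 with a positive log2 fold change, 0.20 ± 0.17 (edgeR adjusted p = 0.830), and its groups overlapped. The value was 0.06 without control 1, 0.31 without N+F library 1 and 0.09 without N+F library 4.

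Lct, the intestinal enzyme that splits milk sugar, measured 0.603, 0.537, 0.889 and 1.44 CPM with N+F, against 2.15, 7.35 and 1.66 CPM in controls. All N+F libraries lay below all controls, and the level in control 2 was 3.86 times the mean of the other controls. The log2 fold change was -2.05 ± 0.57 (edgeR adjusted p = 0.279; DESeq2 adjusted p = 0.0610), the lowest of the 7, and -1.12 without control 2. Tdo2, which opens the ring of tryptophan at the start of the kynurenine pathway, did not pass the count filter, with 4, 10, 3 and 1 reads with N+F and 10, 28 and 8 in controls. As CPM of the library total these were 0.392, 0.899, 0.265 and 0.0816 with N+F, against 0.398, 2.32 and 0.636 in controls. N+F library 2 lay above 2 of the controls. The means of 0.409 ± 0.350 CPM with N+F and 1.12 ± 1.05 CPM in controls (SD, n = 4 and 3) differed by -0.707 CPM (two-sided exact permutation p = 0.286, where 0.0571 is the smallest that 35 splits of 4 and 3 libraries give with both tails). Without control 2 the difference was -0.108 CPM.

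Trpc6 measured 7.43, 14.3, 13.7 and 11.997 CPM with N+F, against 13.3, 26.8 and 17.5 CPM in controls. N+F libraries 2 and 3 lay above control 1 on this scale, while on CPM of the library total the groups did not overlap, at 7.26 to 14.4 CPM with N+F and 14.8 to 26.5 CPM in controls. The log2 fold change was -0.68 ± 0.26 (edgeR adjusted p = 0.473), and -0.37 without control 2.

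**Figure D2:**
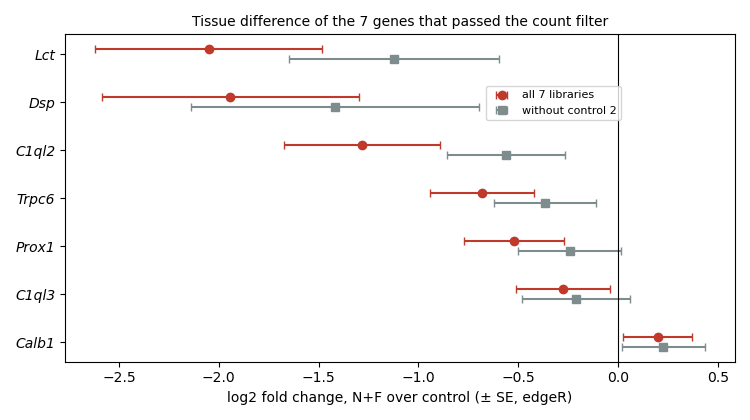
Log2 fold change of N+F over control for the 7 genes that passed the count filter (horizontal axis, with SE; genes down the page, lowest at the top), with all 7 libraries and without control 2. C1ql2 moves from -1.28 to -0.56 and Lct from -2.05 to -1.12 when control 2 is left out, while Calb1 stays at 0.20 and 0.23.

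The 6 genes that peaked in control 2 did so in the library with the least striatal RNA. The level in control 2 over the mean of controls 1 and 3 was 4.48 for Tdo2, 3.86 for Lct, 2.96 for C1ql2, 2.34 for Dsp, 1.74 for Trpc6 and 1.66 for Prox1, against 1.14 for C1ql3 and 1.06 for Calb1. Of the 8 striatum markers 0 were called by edgeR or DESeq2 and 1 lay higher at an unadjusted p under 0.05, beside 4.1% of all genes. Their log2 fold changes of N+F over control had a median of 0.97, with 8 of 8 above 0, where 50.8% of all genes lay below 0. The part of tissue makeup in the granule gene values was not tested. Markers of the meninges also had lower sums with N+F, where sums of marker lists are CPM of the library total. The 7 fibroblast and meningeal markers summed to 21.3 to 56.4 CPM with N+F, against 59.7 to 326 CPM in controls. N+F library 4, at 56.4 CPM, lay close to control 1, at 59.7 CPM, and this gap is given for library totals only. None of the 7 was at 0 in all libraries, and 1, Col1a1, was called lower (3 by DESeq2). Over all genes edgeR called 0.103% and DESeq2 0.508% lower. Col1a1 and Col1a2 made up most of the sums of controls 2 and 3, as TMM-scaled CPM 140 and 138 for Col1a1 and 125 and 113 for Col1a2. Dcn, Lum, Aldh1a2 and Slc6a13 overlapped between the groups, and Slc6a13 had a log2 fold change above 0, at 0.25. Dsp is also known from meninges, and the part of such cells in its values was not tested. In controls 1 to 3 the meningeal sum was 59.7, 326 and 307 CPM, beside 1.91, 5.29 and 2.86 CPM of Dsp, all as CPM of the library total. Further lists differed between the groups: 5 endothelial markers summed to 15.3 to 23.0 CPM with N+F and 27.4 to 42.3 CPM in controls. Of these 5, 0 were called by either tool and 4 lay lower at an unadjusted p under 0.05, beside 4.36% of all genes. Sums of the CA2, CA3 and microglia lists were separated too, with 0 genes called. With N+F they were 115 to 137, 50.1 to 53.7 and 222 to 274 CPM. In controls they were 142 to 169, 55.0 to 65.0 and 280 to 305 CPM. Choroid plexus sums overlapped, at 147 to 4015 CPM with N+F and 1142 to 3174 CPM in controls. Of 7 CA1 markers 2 were called lower, Fibcd1 (-1.89, edgeR adjusted p = 0.0267) and Spink8 (-1.51, edgeR adjusted p = 0.0436), beside 0.103% of all genes. Of 10 inhibitory neuron markers 6 lay higher and 0 lower at an unadjusted p under 0.05, beside 4.1% and 4.36% of all genes. Neither tool called any of these 10. The part of these cells in the granule gene values was not tested.

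**Figure D3:**
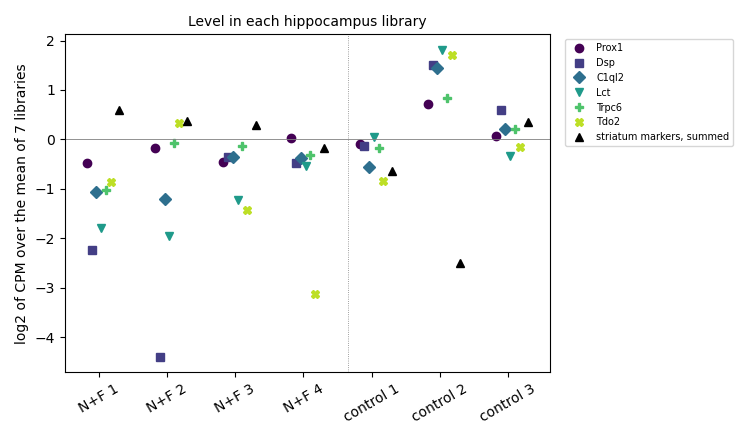
Level of 6 granule neuron genes and of the summed striatum markers in each hippocampus library (vertical axis, log2 of the level over the mean of all 7 libraries; horizontal axis, libraries). In control 2 all 6 genes lie above 0 and the striatum markers, at 297 CPM of the library total, lie lowest.

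The 7 genes formed looser and tighter pairs across the 7 tissue libraries. Likeness was measured as the root mean square difference of log2 levels after centring each gene on its own mean. The closest pair was Prox1 and Trpc6 at 0.28, followed by Prox1 and C1ql3 at 0.32, C1ql3 and Calb1 at 0.33 and C1ql2 and Lct at 0.36. The most distant pairs were Dsp and Calb1 at 1.04 and Calb1 and Lct at 0.98. Outside the set, the 5 genes closest to Prox1 were Mettl4, Chst8, BC100451, Lifr and Pgf, at 0.11 to 0.13, where the Prox1 profile itself had a root mean square of 0.35. The 5 closest to the mean profile of the 7 genes were Ednra, Pcolce, Casq1, Ramp2 and Slc37a2, at 0.12 to 0.20. All genes were measured in the same 7 libraries, whose depth and striatal marker content differ, so these values describe those libraries only.

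Per kilobase of annotated exon, Calb1 had the highest tissue level, with 50.0 CPM per kb with N+F and 43.6 in controls. C1ql3 followed with 19.9 with N+F and 24.1 in controls, C1ql2 with 4.67 and 11.5 and Trpc6 with 2.34 and 3.79 in the same groups. Prox1 reached 0.666 CPM per kb with N+F and 0.967 in controls. Lct, Dsp and Tdo2 were the lowest 3, at 0.140, 0.0869 and 0.119 with N+F and 0.603, 0.344 and 0.325 in controls, and their spread within groups was larger than the steps between them. 

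Other genes of the granule neuron went both ways. Of 11 further genes known from mouse granule neurons, such as the vesicle protein gene Stxbp6 and the guanine exchange factor gene Dock10, 0 were called by edgeR. At an unadjusted p under 0.05, 1 lay lower and 2 higher, beside 4.36% and 4.1% of all genes. Of the 11, 6 had negative log2 fold changes. The values ran from -0.54 to 0.71 and the median was -0.02, beside -0.0044 over all genes tested. Dock10 measured 31.1 ± 4.22 CPM with N+F and 37.8 ± 2.37 CPM in controls (log2 fold change -0.28, edgeR adjusted p = 0.637). Glis3, a zinc finger factor, measured 60.4 ± 9.13 CPM with N+F and 37.0 ± 1.11 CPM in controls (0.71, edgeR adjusted p = 0.132), and was the 1 of the 11 that DESeq2 called (adjusted p = 0.00262). Several of the 11 are also expressed outside the dentate gyrus.

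Among the partners of the C1q-like proteins 0 of 4 receptor genes and 0 of 5 tested ligand relatives were called by edgeR or DESeq2. At an unadjusted p under 0.05, 1 of the receptor genes lay lower and 1 of the ligand relatives higher. Of all genes tested 4.36% lay lower and 4.1% higher at that p, and these shares apply to each partner list below. Grik4, a high-affinity kainate receptor subunit of CA3 and granule neurons, measured 10.3 ± 3.47 CPM with N+F and 19.3 ± 3.14 CPM in controls, and all N+F libraries lay below all controls (log2 fold change -0.91 ± 0.25, edgeR adjusted p = 0.278). Grik2, Adgrb3 and Nrxn3, the other receptor or adhesion genes, had 0.02, 0.04 and 0.09. Of 5 tested desmosome genes 0 were called by either tool, and 2 lay lower and 0 higher at an unadjusted p under 0.05. Pkp2, a plakophilin that binds desmoplakin, had -0.78 ± 0.19 (edgeR adjusted p = 0.221) and Ppl -0.95 ± 0.30 (0.359), while Jup had 0.05. Among relatives of Trpc6, the channel gene Trpc7 had a log2 fold change of 0.78 ± 0.19 (edgeR adjusted p = 0.234), and DESeq2 called it (adjusted p = 0.0268). Trpc1, Trpc4 and Trpc5 had -0.26, -0.45 and -0.68, and neither tool called them (edgeR adjusted p = 0.900, 0.669 and 0.631; all 3 had an unadjusted p above 0.05). Of 6 tested genes of tryptophan use 0 were called by either tool, and 0 lay lower and 3 higher at an unadjusted p under 0.05. Kynu, an enzyme further down the kynurenine pathway, measured 120 ± 11.0 CPM with N+F and 88.2 ± 8.41 CPM in controls (0.44, edgeR adjusted p = 0.285). The calcium buffers Calb2, Pvalb, Scgn and S100g had 0 calls by either tool and log2 fold changes of 0.14, -0.30, 0.81 and 0.77. Of these, 0 lay lower and 1 higher at an unadjusted p under 0.05.

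In the cultures, the library labelled untreated hippocampal glia held all 8 genes of the set, 6 of them at higher levels than its cortical counterpart. With 1 library per group no test was made, ratios have counting intervals only, and levels are CPM of the library total. Of the 8 genes, 5 (Dsp, Lct, Tdo2, C1ql2 and Prox1) were at least 2-fold higher in hippocampal than in cortical untreated glia on the log2(CPM + 1) scale, and 0 at least 2-fold lower, where 3.17% of genes at 1 CPM or more were that much higher and 2.3% lower. Dsp measured 36.4 CPM in hippocampal and 1.42 CPM in cortical untreated glia, a ratio of 25.7 (95% counting interval 20.4 to 32.8). Lct measured 33.5 and 1.67 CPM in the same libraries, a ratio of 20.1 (16.2 to 25.2). Tdo2 measured 6.16 and 0.345 CPM, a ratio of 17.8 (11.2 to 30.4).

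The 3 steepest differences between the untreated libraries were thus of the 3 genes with the lowest tissue level per kb. C1ql2 measured 56.7 CPM in hippocampal and 10.4 CPM in cortical untreated glia, a ratio of 5.45 (4.98 to 5.97), and Prox1 36.8 and 9.56 CPM, a ratio of 3.85 (3.49 to 4.25). Trpc6 had a ratio of 1.57 (1.43 to 1.74), at 17.7 and 11.3 CPM, summed over 3 lines of the table. C1ql3, at 150 and 154 CPM, and Calb1, at 102 and 142 CPM, were not higher in the hippocampal library (ratios 0.979 and 0.719). Choroid plexus markers, 6 of 6 at least 2-fold higher, summed to 4355 CPM in the hippocampal and 499 CPM in the cortical untreated library. General neuron markers summed to 5904 and 6837 CPM, with 0 of 6 that differed 2-fold. Both libraries thus held neuron transcripts, and the part of dissection in the regional ratios was not tested.

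**Figure D4:**
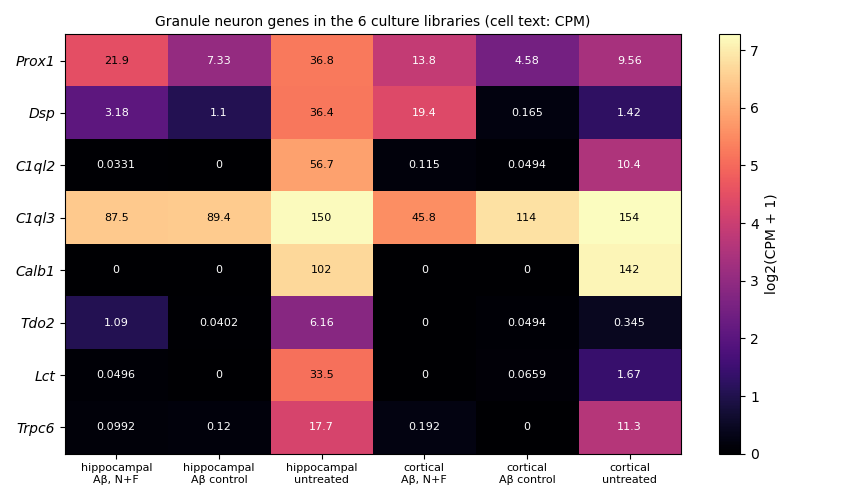
Level of the 8 genes in the 6 culture libraries (rows genes, columns libraries, cell text CPM of the library total, colour log2(CPM + 1)). The hippocampal untreated library holds all 8 genes at 6.16 CPM or more, and Calb1 is 0 in all 4 libraries with amyloid beta.

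In the amyloid beta control libraries most of the set was at or near 0 in both regions, against the untreated libraries. On the log2(CPM + 1) scale 5 of the 8 genes (Dsp, C1ql2, Calb1, Lct and Trpc6) were at least 2-fold lower in both regions and 0 were higher, where 21.5% of 14516 genes were that much lower and 16.6% higher. By plain ratios of CPM, which weigh low levels more, Prox1 and Tdo2 also passed 2-fold, which made 7 of 8. Calb1 had 0 counts in both amyloid beta control libraries, against 102 CPM in hippocampal and 142 CPM in cortical untreated glia, and was at least 2538-fold and 2867-fold lower (against a floor of 3 counts per library). C1ql2 had 0 counts in hippocampal amyloid beta control glia, against 56.7 CPM untreated, at least 1412-fold lower. In cortical glia C1ql2 had 3 counts with amyloid beta, a ratio of 0.00475 (95% counting interval 0.000976 to 0.0140). Lct had 0 counts in hippocampal amyloid beta control glia, at least 833-fold lower than untreated, and 0.0659 CPM in cortical glia, a ratio of 0.0395 (0.0105 to 0.105).

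Trpc6 measured 0.120 CPM in hippocampal amyloid beta control glia, against 17.7 CPM untreated, and was at least 228-fold lower in cortical glia, where no read was counted. Dsp measured 1.10 CPM with amyloid beta against 36.4 CPM untreated in hippocampal glia, and 0.165 against 1.42 CPM in cortical glia. Tdo2 had 3 counts in each amyloid beta control library, with ratios to untreated of 0.00652 (0.00134 to 0.0192) in hippocampal and 0.143 (0.0270 to 0.491) in cortical glia. Markers of other cells differed between these libraries as well. In hippocampal glia the neuron markers summed to 347 CPM in the amyloid beta control and 5904 CPM untreated, oligodendrocyte markers to 97.6 and 8250 CPM, microglia markers to 65.6 and 391 CPM and endothelial markers to 9.11 and 134 CPM. Amyloid beta and cell content cannot be told apart in these ratios.

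Prox1 and C1ql3 were the 2 genes of the set that stayed well above 0 in the libraries of low neuron content. Prox1 measured 7.33 CPM with amyloid beta against 36.8 CPM untreated in hippocampal glia, a ratio of 0.199 (0.181 to 0.219), and 4.58 against 9.56 CPM in cortical glia, a ratio of 0.479 (0.412 to 0.556). C1ql3 measured 89.4 CPM with amyloid beta against 150 CPM untreated in hippocampal glia, and 114 against 154 CPM in cortical glia, ratios of 0.594 (0.576 to 0.613) and 0.738 (0.715 to 0.763). C1ql3 was thus detected in all 6 libraries at 45.8 CPM or more, including the 4 in which Calb1 was at 0.

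N+F in the amyloid beta cultures went with a higher Prox1 level in both regions. Prox1 measured 21.9 CPM with N+F against 7.33 CPM in the amyloid beta control of hippocampal glia, and 13.8 against 4.58 CPM in cortical glia. The ratios were 2.99 (95% counting interval 2.70 to 3.30) and 3.01 (2.64 to 3.45). On the log2(CPM + 1) scale Prox1 was the 1 gene of the set at least 2-fold higher in both regions (with Dsp, 2 genes by plain ratios of CPM), where 2.07% of 13479 genes were, and 0 of the set were lower in both, where 0.119% of genes were. With TMM scaling, which moved the median of all genes by -0.12 in hippocampal and 0.16 in cortical glia, the Prox1 log2 ratios were 1.33 and 1.57, against 1.46 and 1.41 on library totals. Prox1 is also a factor of lymphatic endothelium, and of 4 lymphatic markers Pdpn, also known in astrocytes, made up nearly all of the summed level. Flt4 measured 4.73 CPM with N+F against 0.790 CPM in the control of cortical glia, and 0.893 against 0.776 CPM in hippocampal glia. Lyve1 measured 0.447 CPM with N+F in cortical glia and was at 0 in the other 3 libraries, and Ccl21a was at 0 in all 4. Of 10 inhibitory neuron markers, 2 in hippocampal and 3 in cortical glia were at least 2-fold higher with N+F, as were 5.6% and 12.9% of all genes. The median log2 ratios of the 10 were -0.04 and 0.05. Npy and Lhx6 were higher in both regions, with Lhx6 at 5.03 against 0.107 CPM in hippocampal and 5.14 against 0.0988 CPM in cortical glia. Adarb2, Htr3a and Slc32a1, all below 1 CPM, were lower in both. Gad1, Gad2 and Pvalb went opposite ways in the 2 regions, Sst was at or near 0, and Vip was at 0 in all 4. Oligodendrocyte markers summed to 290 CPM with N+F and 15.4 CPM in the control of cortical glia, and to 73.2 and 97.6 CPM in hippocampal glia. The part of these cells in the Prox1 values was not tested. The Prox1 antisense genes of the annotation were not rows of the tables, and the sources used here do not give whether counting used strand, so antisense reads could be part of the Prox1 values.

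Dsp was also higher with N+F, by unlike amounts in the 2 regions. It measured 19.4 CPM with N+F against 0.165 CPM in the amyloid beta control of cortical glia, a ratio of 118 (63.7 to 246), and 3.18 against 1.10 CPM in hippocampal glia, a ratio of 2.89 (2.22 to 3.79). In the cortical N+F library 7 fibroblast and meningeal markers summed to 8418 CPM, against 101 CPM in its amyloid beta control, with 6 of 7 at least 2-fold higher. In hippocampal glia they summed to 290 CPM with N+F and 282 CPM in the control, with 0 of 7 at least 2-fold higher on the log2(CPM + 1) scale. By plain CPM Aldh1a2 passed 2-fold there, at 1.62 against 0.375 CPM. The part of such cells in the cortical Dsp value was not tested. On the log2(CPM + 1) scale 0 of 6 desmosome partner genes were 2-fold higher with N+F in cortical glia, where 12.9% of all genes were. In hippocampal glia 2 of 6 were, where 5.6% of all genes were, namely Ppl and Evpl, with log2 ratios of 1.15 and 2.19. By plain CPM in cortical glia Dsc2 (3.92 against 1.70) and Ppl (1.25 against 0.511) also passed 2-fold. Evpl was higher there by less, and Jup, Pkp2 and Dsg2 were lower.

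C1ql3 measured 45.8 CPM with N+F against 114 CPM in the amyloid beta control of cortical glia, a ratio of 0.404 (0.388 to 0.420), and 87.5 against 89.4 CPM in hippocampal glia, a ratio of 0.978 (0.944 to 1.01). Its relative C1ql1 measured 100 CPM with N+F against 88.3 CPM in the control of cortical glia, and 32.6 against 56.9 CPM in hippocampal glia. Tdo2 had 66 counts with N+F against 3 in the amyloid beta control of hippocampal glia, a ratio of 27.2 (8.91 to 135), and 0 against 3 counts in cortical glia. Calb1 had 0 counts with N+F in both regions, with 95% counting intervals up to 0.0610 CPM in hippocampal and 0.0471 CPM in cortical glia. C1ql2, Lct and Trpc6 stayed below 0.2 CPM. The 6 neuron markers summed to 361 CPM with N+F and 347 CPM in the control of hippocampal glia, and to 342 and 344 CPM in cortical glia. Single markers within these sums went both ways. Against the control, Map2 measured 174 against 72.6 CPM and Stmn2 162 against 235 CPM in hippocampal glia. In cortical glia Map2 measured 131 against 72.1 CPM and Tubb3 12.2 against 73.5 CPM. Snap25, Syt1 and Rbfox3 stayed at 3.36 CPM or less in all these libraries.

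Between hippocampal and cortical glia with amyloid beta the regional order could be read for few genes, since most of the set was at or near 0. In the amyloid beta control 3 of the 8 genes reached 1 CPM in at least 1 of the libraries, and 0 of these 3 differed 2-fold on the log2(CPM + 1) scale. Of all genes at 1 CPM or more, 4.17% were higher and 2.13% lower in hippocampal glia. The rest of the set was too low to differ 2-fold on this scale. By plain ratios Dsp was higher in hippocampal glia, at 1.10 against 0.165 CPM, a ratio of 6.66 (3.45 to 14.4). Trpc6 was at least 2.44-fold higher, with 9 counts against 0. Both genes were also higher in the hippocampal of the untreated libraries. With N+F, 4 of the 8 genes reached 1 CPM in at least 1 of the libraries. Of these 4, Tdo2 was at least 2-fold higher in hippocampal glia and Dsp lower on the log2(CPM + 1) scale. Of all genes at 1 CPM or more, 17.3% were higher and 7.06% lower. Prox1 remained the higher in hippocampal glia in all 3 conditions, with ratios of 1.59 (1.46 to 1.72) with N+F, 1.60 (1.38 to 1.86) in the amyloid beta control and 3.85 untreated. With TMM scaling, which moved the median of all genes by -0.28 for N+F, its N+F log2 ratio was 0.34, against 0.63 on library totals.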

How the data were processed

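Each deposited table gives whole-number read counts for gene symbols, not normalized. TopHat, HISAT2, edgeR and the human build hg19 are named in the submitters' processing notes, with no version or role, and no build is assumed here for the counts. RNA was extracted with Trizol and libraries made with the SMARTER mRNA-Seq kit, per the labels' protocols. Counts of a symbol were summed over its lines; in the set this touched Trpc6 of the culture table, with 3 lines. The culture table had 36780 lines for 24542 symbols, so reads counted in several lines would count more than once. No column was left unused.

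The N+F and control tissue groups were tested in edgeR 4.0.16 under R 4.3.3 (filterByExpr, TMM factors 0.895 to 1.11, quasi-likelihood test, Benjamini-Hochberg adjustment over 15523 genes). DESeq2 1.42.0, RLE scaling, no filter, the largest line of a symbol, a replicate block and leaving out each library were alternatives. The test was checked on simulated counts. No replicate pair was a repeat of one library, with a mean chi-square of 15.0 to 56.1 for a gene. Culture ratios were log2(CPM + 1), called at 2-fold, with exact conditional 95% intervals; floors of 3 counts and intervals cover counting error only. Exon lengths came from GENCODE M21. Named genes were the 8 genes, the genes of marker and partner lists and the 5 genes nearest in pattern. 1 gene of a partner list is not reported here. The genes and lists were chosen with earlier results of these data known.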

Additional observations from a re-analysis of the deposited data

How the results depend on the processing

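Over all genes tested in tissue, 17 were called with edgeR, 136 with DESeq2, 29 with no low count filter and 17 with RLE scaling or the largest line of a symbol. Leaving out 1 library gave 0 to 29 calls. Of the granule neuron genes, 0 were called under any of these settings, and their log2 fold changes kept their direction in 84 of 84 values. The settings reuse the same libraries, so these values are not independent. With 1 library left out C1ql3 came as near to 0 as -0.09 and Calb1 as 0.06. Same-numbered tissue libraries had correlations of their deviations of 0.02, -0.08 and 0.11. Their labels share only a number, and these correlations cannot show whether the libraries were paired. With the replicate block edgeR called 0 genes, with 1558 at an unadjusted p under 0.05, beside 1313 without it. DESeq2, with no block, called 136. The C1ql3 and Calb1 log2 fold changes with the block were -0.55 and 0.09. Of the 7 genes, 6 then lay lower at an unadjusted p under 0.05, beside 5.29% of all genes. The Tdo2 difference in tissue ran from -1.07 to -0.108 CPM with 1 library left out, and its exact permutation p from 0.1 to 0.667. With fewer libraries the smallest p that this test can give is larger than the 0.0571 of all 7. The p of 0.1 came without N+F library 2, where all N+F values lay below all controls. In analyses chosen after seeing the data, the count of the 7 genes lower at an unadjusted p under 0.05 was 4 with all libraries and 0 without control 2, and 3 to 6 in the other edgeR settings. In culture, the amyloid beta control against untreated gave 6 genes with a pseudocount of 0.1 CPM, where Prox1 joined the 5. N+F over amyloid beta control gave 2 genes past 2-fold in both regions, Prox1 and Dsp, with a pseudocount of 0.1 CPM or with the largest line of a symbol, since the hippocampal Dsp log2 ratio of 0.99 lay just short of the limit. The hippocampal against cortical amyloid beta control gave 1 gene, Dsp, with that pseudocount. Of 224 culture ratios under alternatives 0 reversed and 27 moved by more than their counting interval. Depth limits Tdo2, Dsp and Lct in tissue, where single libraries held 1 to 10 reads of at least 1 of them, and culture ratios have no replicate error.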

Other observations

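Genes of immature granule neurons and their progenitors, which the subgranular zone makes throughout life, did not pass the test in tissue. Of 8 tested genes of this list 0 were called by edgeR or DESeq2. At an unadjusted p under 0.05, 0 lay lower and 0 higher, beside 4.36% and 4.1% of all genes. The median log2 fold change was 0.23, beside -0.0044 over all genes tested. Dcx, the microtubule protein of young neurons, measured 46.1 ± 6.80 CPM with N+F and 35.8 ± 8.81 CPM in controls (SD, n = 4 and 3; log2 fold change 0.37, edgeR adjusted p = 0.622). Neurod1, a factor of granule neuron differentiation, measured 3.93 ± 1.95 CPM with N+F and 5.74 ± 1.77 CPM in controls (-0.54, edgeR adjusted p = 0.792).

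In the cultures 3 of the 9 listed genes, Igfbpl1, Sox4 and Draxin, were at least 2-fold higher in the amyloid beta control than in the untreated library of both regions, as were 16.6% of all genes. Dcx, Neurod1 and Calb2 were at least 2-fold lower in both, as were 21.5% of all genes, with log2 ratios of -3.64 and -2.67 for Dcx and -4.40 and -2.29 for Calb2 in hippocampal and cortical glia. Whether the untreated libraries are glial cultures is in doubt. Levels of Igfbpl1 were 86.7 against 5.13 CPM in hippocampal and 44.2 against 0.958 CPM in cortical glia. Neurod1 had 0 counts in hippocampal amyloid beta control glia, against 19.6 CPM untreated, and 0.0329 against 15.2 CPM in cortical glia.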
